A study of Mus musculus with 117 samples.

Results

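The 9 genes described here are interferon-inducible genes of the mouse, chosen by name, and they were followed through chromatin state maps of hepatocytes from 9 inbred strains. They were Ifit1, Ifit3, Isg15, Irf7, Irgm1, Irgm2, Igtp, Gbp2 and Gbp3, which is 9 of the 21627 protein-coding genes annotated on the autosomes and chromosome X. Each gene was taken with its GRCm38 span and 2 kb on either side, and together these stretches held 551 bins of 200 bp. The spans of the 9 genes did not overlap one another. The rule that lists the genes names no measured value, but they were listed with earlier results of these data known.

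Hepatocytes, the main parenchymal cells of the liver, came from females 12 weeks old of the wild-derived strains CAST/EiJ, PWK/PhJ and WSB/EiJ and of C57BL/6J, A/J, 129S1/SvImJ, DBA/2J, NZO/HlLtJ and NOD/ShiLtJ. Each strain had ChIP-seq libraries of H3K4me1, H3K4me3, H3K27ac and H3K27me3 from 3 mice and 1 input library, or 13 libraries per strain and 117 in all. No treatment, infection or engineered allele is named in the labels. The libraries of a strain are combined in 1 segmentation that gives each 200-bp bin the number of 1 of 14 states, so every SD below measures strains against one another and the spread of mice of 1 strain is unknown. The descent of the 3 strains from wild-caught mice is common knowledge and not in the labels, and the other 6 are called laboratory strains.

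Interferons are secreted when a cell senses a virus or another microbe. Type I interferons act through Ifnar1 and Ifnar2 and the kinases Jak1 and Tyk2 to bring a complex with Stat2 and Irf9 to a DNA element called ISRE, and interferon gamma acts through Ifngr1, Ifngr2, Jak1 and Jak2 on an element called GAS. The genes switched on include Ifit1 and Ifit3, whose tetratricopeptide proteins act against viral RNA, and Isg15, a ubiquitin-like protein that is joined to other proteins. They also include Irf7, a transcription factor that amplifies type I interferon genes. The immunity-related GTPases Irgm1, Irgm2 and Igtp (also called Irgm3) and the guanylate-binding proteins Gbp2 and Gbp3 take part in the defence against intracellular pathogens.

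The promoter sequences of the genes are shown because most of them hold letters of the ISRE kind just upstream of the start. The sequences are from RefSeq, assembly GRCm38.p6, and run from 250 bases before the start to 50 after it, 5′ to 3′ on the gene's strand. Capitals mark every match to GAAA, any 2 bases and GAAA, or on the other strand TTTC, any 2 bases and TTTC, called ISRE-like here, and overlapping matches run together. Isg15 carried 3 overlapping matches, Ifit1 2 separate ones and Gbp3 2 overlapping ones, and Irgm2 and Igtp carried the same match.
Ifit1 (chr19:34640639-34640938, + strand): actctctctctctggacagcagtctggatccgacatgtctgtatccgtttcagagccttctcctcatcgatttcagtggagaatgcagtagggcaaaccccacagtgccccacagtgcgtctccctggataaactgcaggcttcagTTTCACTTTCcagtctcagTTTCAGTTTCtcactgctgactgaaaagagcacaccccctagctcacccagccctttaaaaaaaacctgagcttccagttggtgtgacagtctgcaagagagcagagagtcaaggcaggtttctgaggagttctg
Isg15 (chr4:156200769-156201068, − strand): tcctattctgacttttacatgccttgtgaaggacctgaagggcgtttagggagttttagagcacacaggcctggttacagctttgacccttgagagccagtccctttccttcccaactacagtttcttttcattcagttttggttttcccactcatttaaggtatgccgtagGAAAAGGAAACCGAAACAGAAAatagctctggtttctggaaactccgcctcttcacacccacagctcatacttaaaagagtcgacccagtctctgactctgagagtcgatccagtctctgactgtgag
Irgm2 (chr11:58214727-58215026, + strand): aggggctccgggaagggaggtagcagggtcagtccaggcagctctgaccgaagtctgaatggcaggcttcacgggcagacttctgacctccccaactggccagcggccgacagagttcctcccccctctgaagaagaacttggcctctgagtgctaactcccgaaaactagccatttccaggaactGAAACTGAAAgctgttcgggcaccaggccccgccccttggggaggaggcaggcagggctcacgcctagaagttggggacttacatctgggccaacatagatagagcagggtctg
Igtp (chr11:58199306-58199605, + strand): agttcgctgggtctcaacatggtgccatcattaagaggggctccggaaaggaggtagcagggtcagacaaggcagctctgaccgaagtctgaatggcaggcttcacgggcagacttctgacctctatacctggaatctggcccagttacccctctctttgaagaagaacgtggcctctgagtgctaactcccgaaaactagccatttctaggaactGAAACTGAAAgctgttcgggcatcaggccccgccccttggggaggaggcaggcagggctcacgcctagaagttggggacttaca
Gbp3 (chr3:142559794-142560093, + strand): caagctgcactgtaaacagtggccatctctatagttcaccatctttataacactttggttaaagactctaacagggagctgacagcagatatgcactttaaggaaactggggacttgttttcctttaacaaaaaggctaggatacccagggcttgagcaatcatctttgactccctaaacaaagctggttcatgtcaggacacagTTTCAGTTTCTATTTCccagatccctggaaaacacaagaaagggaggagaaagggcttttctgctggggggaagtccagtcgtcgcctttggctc
The matches lay between 57 and 78 bases upstream of the start at Isg15, between 76 and 104 at Ifit1 and between 30 and 45 at Gbp3. Among the genes whose promoters are not printed, Ifit3 held TTTCACTTTC and TTTCAGTTTC, Irgm1 held GAAATAGAAA and GAAACCGAAA in an overlap, and Gbp2 held TTTCACTTTC.

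ISRE-like letters were found in 8 of the 9 genes, all but Irf7, against 3.46% of the 32619 promoters of the table. The shorter GAS-like pattern TTCNNNGAA, which reads the same on both strands, was found in 2 of the 9, Irgm2 and Igtp, against 8.34% of all promoters. At Irgm2 the GAS-like match was TTCCAGGAA, and at Igtp it was TTCTAGGAA, in each case just before the ISRE-like match and not overlapping it. The Irgm2 and Igtp promoters shared an identical stretch of 61 bases and were identical at 184 of 270 bases when laid over each other with an offset of 30 bases and no gaps (68.1%). How reads from such shared stretches were placed is not given in the sources used here. Among the 58 other interferon pathway genes with a promoter in the table, 21 held an ISRE-like match. A match describes letters and is not a binding site, and the absence of one at Irf7 says only that these letters are not in this window.

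The state numbers are used as names, since the mark content of a state is not given in the sources used here, and known genes served as landmarks. At the starts of 10 hepatocyte genes such as Alb and Apoa1, 41.0% ± 2.52 of bins were in state 1 and 39.1% ± 2.35 in state 3 (SD, n = 9 strains). At the starts of 10 developmental regulators that hepatocytes keep silent, 54.1% ± 7.57 were in state 13 and 30.7% ± 8.17 in state 10. State 14 covered 76.6% ± 1.47 of the autosomes. States 1 to 3 are counted together below. Over whole padded spans they covered a median of 81.1% for the hepatocyte markers, with none of the 10 at 0, and 0.0172% for 10 Kupffer cell and leukocyte markers, among which Clec4f, Cd5l, Marco and Lyz2 were at 0 in every strain and Cd68 was highest at 64.8%, followed by Csf1r at 12.2%. The median was 2.56% for 6 endothelial markers, with Stab2 the highest at 14.8%, and 0% for 7 stellate and bile duct markers, with Sox9 the highest at 19.7%. Stab2 and Sox9 thus stood above Ifit1, Gbp2 and Gbp3, whose values follow. Within 1 kb of the start the medians of these Kupffer, endothelial and stellate lists were 0%, 4.29% and 0%. Single markers stood higher there, Reln at 70.7%, Cd68 at 53.5% and Sox9 at 40.4%, beside 70.7% at Gbp2 and 35.4% at Gbp3. Of these markers, only Reln and Sox9 were called higher at the start by the test described below. In a map of pooled cells, a change in some cells and a weaker change in all of them cannot be told apart. The part that other liver cells play in the values of the 9 genes was not tested.

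States 1 to 3 covered very different shares of the 9 genes. The mean share of bins was 77.4% ± 26.1 at Isg15, 57.2% ± 13.04 at Irgm2, 51.1% ± 8.50 at Irgm1 and 35.3% ± 6.51 at Igtp (SD, n = 9 strains). It was 26.3% ± 5.74 at Irf7, 20.2% ± 2.73 at Ifit3, 12.8% ± 3.96 at Ifit1, 8.13% ± 2.48 at Gbp2 and 5.24% ± 4.31 at Gbp3. The median of these 9 means, 26.3%, stood beside a median of 5.14% over all protein-coding genes, of which 29.9% had none of these states in any strain. Between neighbours in this order, the mean difference within strains was larger than its SD from Irgm1 to Igtp, from Igtp to Irf7, from Ifit3 to Ifit1 and from Ifit1 to Gbp2, and Ifit3 was above Ifit1 in 9 of 9 strains. It was smaller than its SD for Isg15 and Irgm2, for Irgm2 and Irgm1, for Irf7 and Ifit3 and for Gbp2 and Gbp3. Spans also take in parts of other genes, Agrn at Isg15, Phrf1 at Irf7, Ifit1bl1 and Ifit1bl2 at Ifit1 and Gbp2b at Gbp2, and the share of a span depends on gene length.

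**Figure D1:**
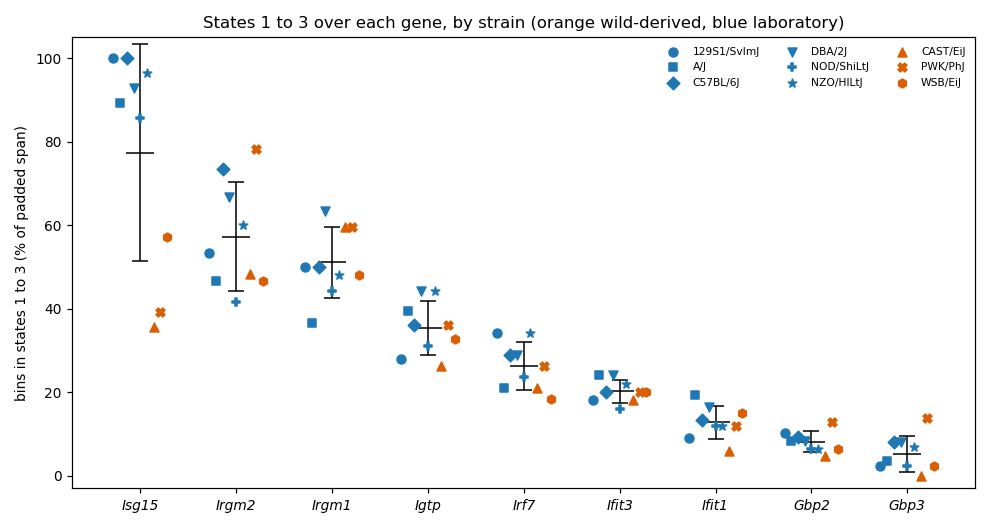
Percentage of 200-bp bins in states 1 to 3 over each gene padded by 2 kb (y axis), with 1 point per strain and a bar for the mean and SD over 9 strains. The orange points of the wild-derived strains lie apart from the blue laboratory strains at Isg15, where they run from 35.7% to 57.1% against 85.7% to 100%.

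The bin that holds the start was in state 1 or state 3 in every strain at 8 of the 9 genes, and the genes differed in which of these it was. It was in state 1 in 9 of 9 strains at Ifit1, Ifit3, Isg15 and Gbp2. It was in state 3 in 9 of 9 strains at Irgm1 and Irgm2 and in 8 at Igtp, the exception being PWK/PhJ with state 1. At Irf7, state 1 was found in 7 strains and state 3 in 2. At Gbp3, 8 strains had state 1 and CAST/EiJ had state 8. Counting all 14 ISRE-like matches in all strains gave 126 combinations, each assigned by the bin of the match's first base. State 1 held 87 of them, state 3 held 35 and state 8 held 4, these last all at Gbp3.

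Concentration at the start was tested within strains, as the percentage of bins in states 1 to 3 within 1 kb of the start minus that in the rest of the padded span. The start window was higher at 8 of the 9 genes, against 47.7% of protein-coding genes called higher and 7.8% called lower by the exact sign-flip permutation test over 9 strains (adjusted p under 0.05 over 21627 genes). At Ifit3, 86.9% ± 8.02 of start bins stood against 1.42% ± 2.26 of the rest, a difference of 85.4 ± 7.89 percentage points (SD, n = 9 strains, exact sign-flip permutation, adjusted p = 0.00781, higher in 9 of 9 strains). Ifit1 differed by 71.7 ± 17.2 points and Gbp2 by 69.7 ± 12.7, with the same adjusted p and the same count of strains. So in these 3 genes states 1 to 3 formed an island over the start, and their bodies were almost free of them.

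The GTPases of the Irgm group had every start bin in states 1 to 3 in every strain. The rest of the span was also well covered, at 47.6% ± 16.0 for Irgm2, 37.9% ± 10.8 for Irgm1 and 21.1% ± 7.94 for Igtp. The start exceeded the rest by 52.4 ± 16.0, 62.1 ± 10.8 and 78.9 ± 7.94 points respectively (exact sign-flip permutation, adjusted p = 0.00781 for each, higher in 9 of 9 strains). Irf7 differed by 63.9 ± 6.91 points with the same adjusted p. Gbp3 had the smallest difference of those called, 34.5 ± 24.4 points, with 8 of 9 strains higher (exact sign-flip permutation, adjusted p = 0.0147). Isg15 was not called, at 2.32 ± 9.54 points with 4 of 9 strains higher (adjusted p = 1 by the same exact test), but it was called with a window of 500 bp to each side (19.4 points, adjusted p = 0.0284) or padding of 5 kb (25.1 points, adjusted p = 0.00739). Counting state 3 alone, 4 of the 9 genes were called higher and Isg15 was called lower, by 16.4 points (exact sign-flip permutation, adjusted p = 0.00935).

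The unbroken run of states 1 to 3 over the start measured 5756 ± 615 bp at Irgm1, 3956 ± 994 bp at Irgm2 and 3444 ± 921 bp at Igtp (SD, n = 9 strains). It measured 1978 ± 406 bp at Irf7, 1911 ± 176 bp at Ifit3, 1756 ± 623 bp at Gbp2 and 1667 ± 500 bp at Ifit1. At Ifit3 the run kept between 1600 and 2200 bp, a narrow range. At Gbp3 it was 756 ± 517 bp, from no run in CAST/EiJ to 1600 bp in PWK/PhJ. The widest spread was at Isg15, with 3667 ± 2939 bp.

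**Figure D2:**
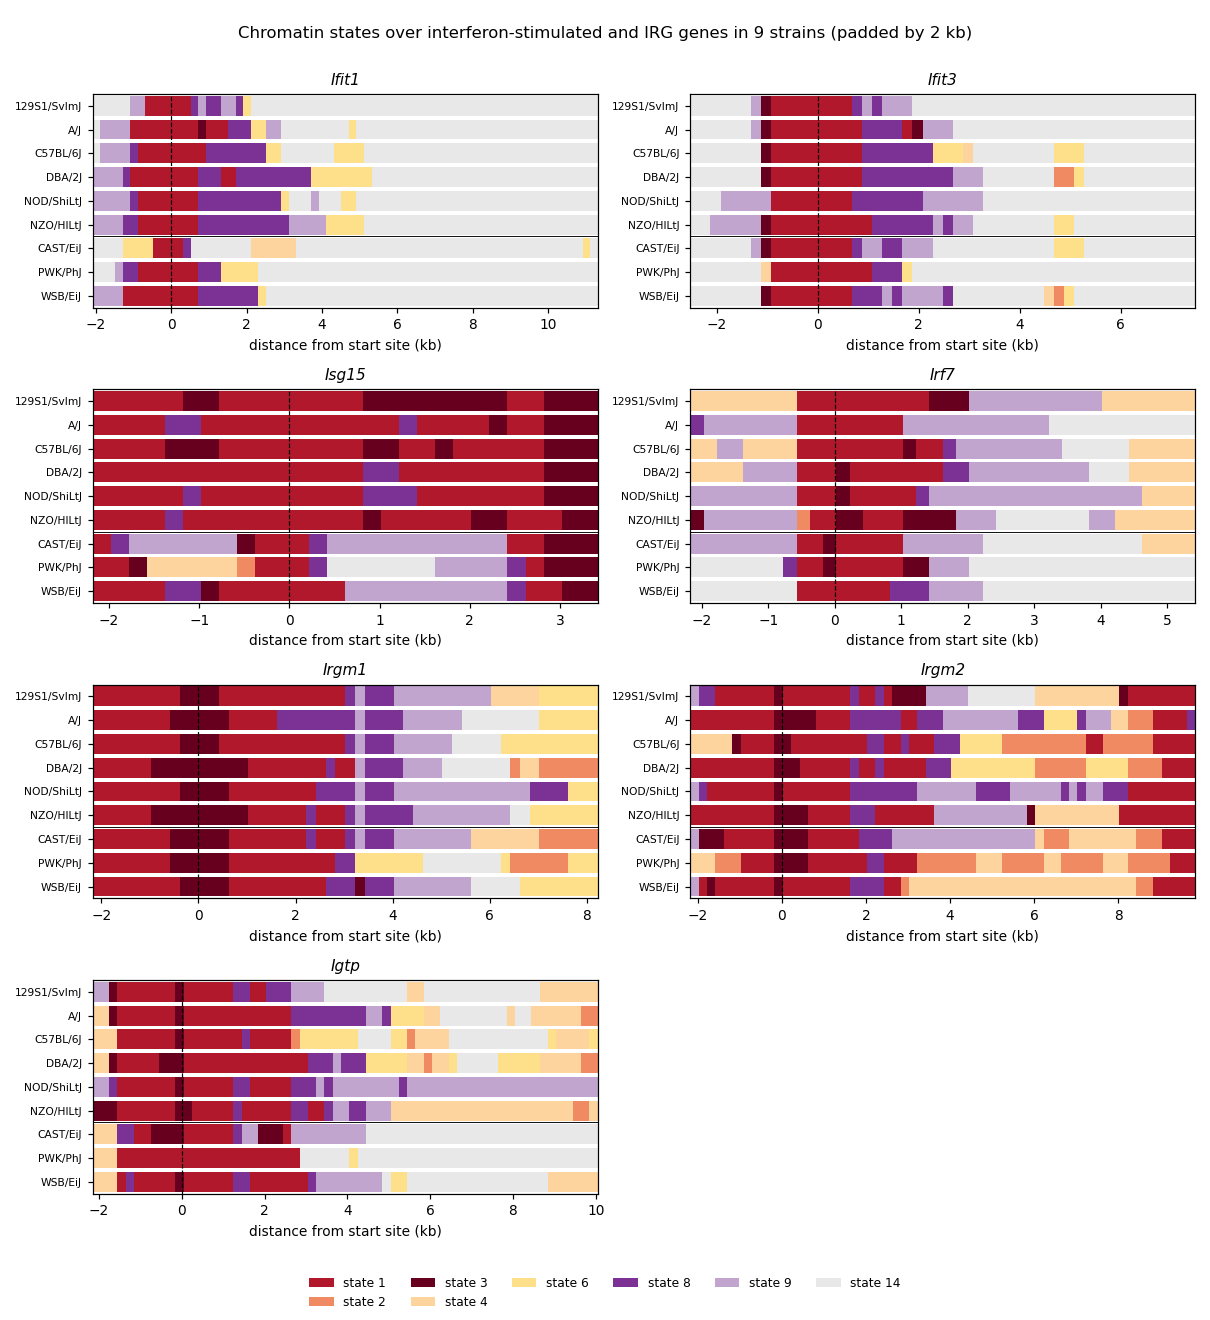
Chromatin state of each bin along 7 genes padded by 2 kb, 1 strip per strain, by distance from the start in kb on the gene's strand (x axis), with the dashed line at the start and the 3 wild-derived strains below the thin line. Red strips cover the start in every strain, and the body of Isg15 turns from red to lilac (state 9) in CAST/EiJ and WSB/EiJ.

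Isg15 (chr4:156199424-156200818, − strand) was the 1 gene of the 9 in which wild-derived and laboratory strains did not overlap. States 1 to 3 covered 35.7% of its padded span in CAST/EiJ, 39.3% in PWK/PhJ and 57.1% in WSB/EiJ. In the 6 laboratory strains the lowest value was 85.7% in NOD/ShiLtJ, the median 94.6% and the highest 100%, reached in both 129S1/SvImJ and C57BL/6J. All 3 wild-derived strains were thus low and all 6 laboratory strains high. The means were 44.0% ± 11.5 (SD, n = 3) and 94.0% ± 5.83 (SD, n = 6), a difference of -50 percentage points by an exact two-sided permutation test with p = 0.0119, which is the smallest p that the 84 splits allow.

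That difference did not pass correction over the 21627 protein-coding genes (exact permutation, adjusted p = 0.861, the smallest of any gene). The groups failed to overlap with wild-derived strains lower in 1.11% of protein-coding genes and with wild-derived strains higher in 0.777%. By the exact permutation test, 0 genes passed at adjusted p under 0.05 and 973 (4.5%) at unadjusted p under 0.05. The 84 splits allow no p under 0.0119 by this test, so passing would have needed a large share of genes tied at it. Failing the correction therefore says little about any gene. Isg15 remained separate when each strain was left out in turn. That outcome was fixed in advance, because removing a strain cannot make separate groups overlap. Isg15 was not separate for state 3 alone (-8.93 points) or for all states other than 13 and 14 (-7.14 points).

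What took the place of states 1 to 3 in the padded Isg15 span differed between the wild-derived strains. State 9 covered 57.1% of the span in CAST/EiJ, 32.1% in WSB/EiJ and 14.3% in PWK/PhJ, and it was absent in all 6 laboratory strains. PWK/PhJ also had 21.4% in state 14 and 17.9% in state 4. In PWK/PhJ the state 4 stretch lay upstream of the start and the state 9 stretch past the gene's end. State 9 covered between 0.271% (PWK/PhJ) and 1.59% (NOD/ShiLtJ) of the autosomes of a strain, and NOD/ShiLtJ had none at Isg15. Whether the amount of state 9 over a strain bears on its values at Isg15 was not tested. The run over the start was 800 bp in CAST/EiJ and PWK/PhJ and 1600 bp in WSB/EiJ. In the laboratory strains it was between 1800 bp in NOD/ShiLtJ and 8400 bp in 129S1/SvImJ, and this width is drawn from the same states 1 to 3. The bins with the 3 ISRE-like matches of the Isg15 promoter printed above were in state 1 in every strain.

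The other 8 genes overlapped between the groups. The differences ran from -6.58 points at Irf7 to 7.05 points at Irgm1, and the lowest p among them was 0.143 by the same exact permutation test. Irf7 (chr7:141263183-141266499, − strand) nevertheless differed outside its start. State 14 covered 63.2% of the Irf7 span in PWK/PhJ and WSB/EiJ and 31.6% in CAST/EiJ. Among the laboratory strains it reached 28.9% in A/J and was absent in 129S1/SvImJ and NOD/ShiLtJ. The groups therefore did not overlap when all states other than 13 and 14 were counted (-41.2 points), where 2.69% of protein-coding genes were likewise lower in the wild-derived strains.

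The 3 Irgm genes lie on chromosome 11, Irgm1 at chr11:48865245-48871420 (− strand), Igtp at chr11:58199556-58207592 (+ strand) and Irgm2 at chr11:58214977-58222783 (+ strand). Within 1 kb of the start all 3 were wholly in states 1 to 3 in each strain, and downstream the strains differed. States 1 to 3 at Irgm2 had a lowest value of 41.7% in NOD/ShiLtJ, a median of 53.3% and a highest value of 78.3% in PWK/PhJ. State 2 made up 41.7% of the Irgm2 span in PWK/PhJ and 26.7% in C57BL/6J and was absent in 129S1/SvImJ, NOD/ShiLtJ and NZO/HlLtJ. In WSB/EiJ 45.0% of Irgm2 was in state 4, and in CAST/EiJ 30.0% was in state 9. The leading state outside states 1 and 3 thus differed between strains.

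At Igtp, state 9 covered 55.7% of the span in NOD/ShiLtJ, where state 14 was absent. State 14 covered 57.4% in PWK/PhJ and 45.9% in CAST/EiJ, and state 4 covered 37.7% in NZO/HlLtJ. NOD/ShiLtJ, the strain with the most state 9 on the autosomes, also had 63.2% of Irf7 in state 9 and 28.3% of Irgm2. States 1 to 3 at Igtp stayed between 26.2% in CAST/EiJ and 44.3% in DBA/2J and NZO/HlLtJ, with a median of 36.1%. Irgm1 ranged from 36.5% in A/J to 63.5% in DBA/2J with a median of 50%, and the wild-derived and laboratory strains were mixed in the order.

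Gbp2 (chr3:142620663-142638008, + strand) and Gbp3 (chr3:142560016-142573213, + strand) were the only 2 of the 9 genes with state 13, the state that covered the developmental regulators. State 13 covered 84.3% of the Gbp2 span in CAST/EiJ, 81.5% in NOD/ShiLtJ and 66.7% in WSB/EiJ. It covered 35.2% in NZO/HlLtJ, 19.4% in C57BL/6J, 10.2% in 129S1/SvImJ and 5.56% in A/J, and 0% in DBA/2J and PWK/PhJ. In PWK/PhJ the same body was in state 14, over 84.3% of the span. The body of 1 gene was therefore almost all state 13 in some strains and free of it in others, and the high strains were of both origins.

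Gbp3 had state 13 over 71.3% of its span in NOD/ShiLtJ, 62.1% in WSB/EiJ, 55.2% in CAST/EiJ and 18.4% in 129S1/SvImJ. The other 5 strains had none. The same 3 strains were thus highest at both genes, and both genes lie in the GBP cluster of chromosome 3. A range over strains as wide as at Gbp2 (84.3 points) was found in 2.09% of protein-coding genes, and one as wide as at Gbp3 (71.3 points) in 3.75%. State 13 covered 10.4% of the autosomes in CAST/EiJ, 11.6% in NOD/ShiLtJ and 13.1% in WSB/EiJ, against a range of 9.40% to 12.8% in the other 6 strains.

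**Figure D3:**
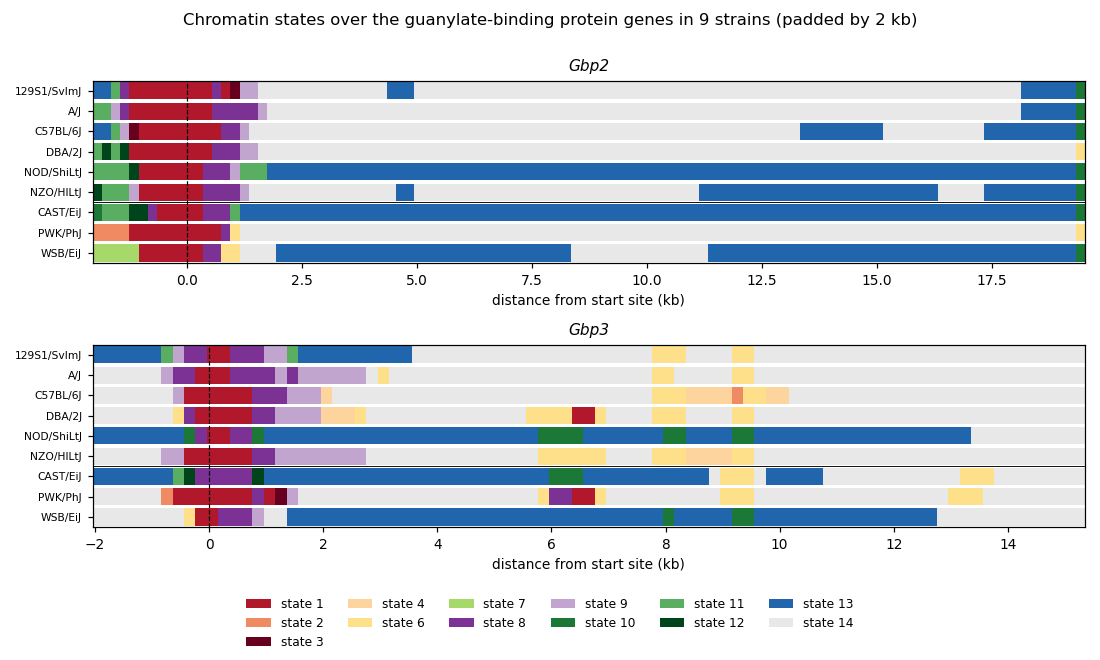
Chromatin state of each bin along Gbp2 and Gbp3 padded by 2 kb, 1 strip per strain, by distance from the start in kb (x axis), with the dashed line at the start and the 3 wild-derived strains below the thin line. State 13 (blue) fills the Gbp2 body from 1138 bp downstream of the start in CAST/EiJ and is absent in DBA/2J and PWK/PhJ.

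The Gbp2 start kept state 1 in all 9 strains, those with state 13 over the body included. In CAST/EiJ the run of states 1 to 3 over the Gbp2 start was 1000 bp and a single stretch of state 13, 18200 bp long, began 1138 bp downstream. States 10 to 12 flanked the Gbp2 start run in several strains and together made up 7.41% of the span in CAST/EiJ and 8.33% in NOD/ShiLtJ. State 11 alone made up 3.70% of the span in CAST/EiJ and 6.48% in NOD/ShiLtJ. At the starts of the developmental regulators state 11 was rare, with 1.01% of bins, against 30.7% for state 10 and 11.5% for state 12. At Gbp3 the start in CAST/EiJ was in state 8, in which both overlapping ISRE-like matches of the printed promoter also lay. PWK/PhJ, with no state 13 at Gbp2 or Gbp3, had the most bins in states 1 to 3 at both, 12.96% at Gbp2 and 13.8% at Gbp3, and CAST/EiJ the fewest, 4.63% and 0%.

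The other GBP genes on chromosome 3 each had a pattern of their own. Gbp7 had state 13 over 84.2% of its span in CAST/EiJ and at most 13.3% elsewhere. Gbp2b ranged from 28.9% in PWK/PhJ to 89.4% in NOD/ShiLtJ and WSB/EiJ, and Gbp5 from 61.5% in PWK/PhJ to 94.6% in WSB/EiJ. CAST/EiJ was high at Gbp2, Gbp3 and Gbp7 but below the mean at Gbp2b (64.8%, mean 72.5%) and Gbp5 (73.0%, mean 83.6%). PWK/PhJ was lowest at Gbp2b and Gbp5 and had 0% at Gbp2, Gbp3 and Gbp7. The GBP genes on chromosome 5 had little state 13, at most 8.42% (Gbp9 in 129S1/SvImJ).

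**Figure D4:**
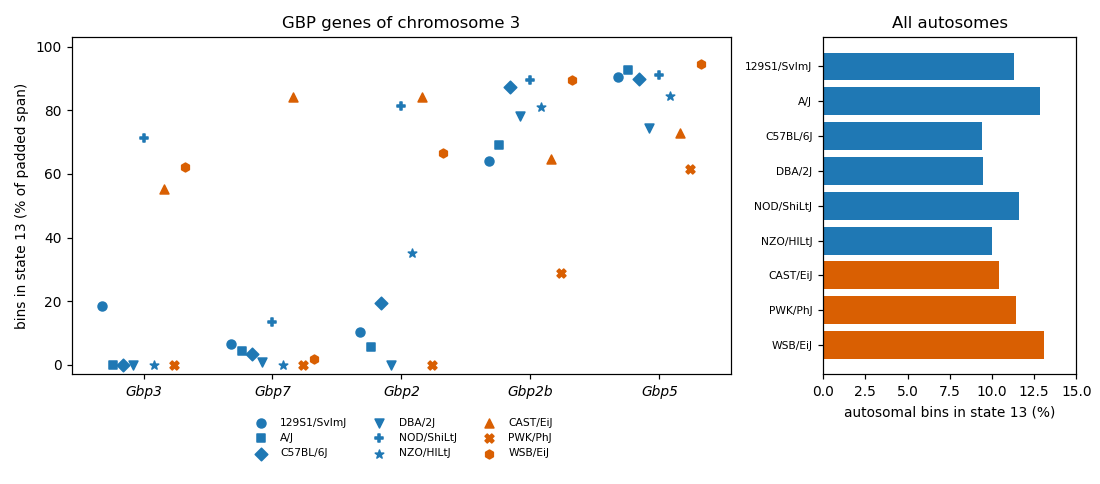
Percentage of bins in state 13 over the padded span of 5 GBP genes of chromosome 3, 1 point per strain with wild-derived strains in orange (left, y axis), and over all autosomes by strain (right, x axis). Gbp2 runs from 0% to 84.3% while the autosomes run from 9.40% to 13.1%.

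Divergence was measured as the percentage of bins whose state differed between a pair of strains, averaged over the 36 pairs. It was 53.9% at Irgm2, 51.9% at Gbp3, 51.5% at Igtp, 50.9% at Irf7, 48.7% at Gbp2 and 45.0% at Isg15. These 6 genes lay above the 90th percentile of protein-coding genes, with percentiles from 96.4 for Isg15 to 99.2 for Irgm2. Irgm1 had 34.7% (percentile 85.9), Ifit1 26.9% (percentile 70.0) and Ifit3 24.0% (percentile 62.2), beside a median of 19.7% for all protein-coding genes. Counting only bins outside state 14 in at least 1 strain, Ifit1 had 47.4% (percentile 93.8) and Irgm1 34.7% (percentile 51.3) beside a median of 34.5% for all protein-coding genes, and 7 of the 9 genes lay above the 90th percentile. Pairs share strains, so no p is given.

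The genes reached these values in different ways. At Gbp2 the bins mostly switched between states 13 and 14, and with these merged its divergence was 8.18% and that of Gbp3 25.2%, whereas the other 7 genes hold no state 13 and kept their values. With that merging the median of all protein-coding genes was 12.2%, Gbp2 fell to percentile 40.7 and Gbp3 to 76.2, Irgm1 was at 90.5, and 5 of the 9 genes lay above the 90th percentile. At Gbp2, 93 of 108 bins carried exactly 2 states among the strains. At Igtp, 43 of 61 bins carried 3 or more, and at Irgm2 35 of 60. Only 5 bins of Gbp2 and 3 of the 38 of Irf7 had 1 state in all strains, against 27 of the 50 at Ifit3.

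Bins private to a strain are those where the other 8 agree on another state. They numbered 13 in CAST/EiJ, 9 in PWK/PhJ and 5 each in A/J and NZO/HlLtJ. There were 2 each in 129S1/SvImJ, DBA/2J and WSB/EiJ, 1 in NOD/ShiLtJ and 0 in C57BL/6J. Private bins over all protein-coding genes are not given here, so whether this order of strains is particular to the 9 genes is unknown. Averaged over the 9 genes, the percentage of bins that differed from the other strains ran from 38.5% in A/J to 48.7% in CAST/EiJ. The same average over all protein-coding genes ran from 19.0% in C57BL/6J to 24.4% in PWK/PhJ. The most divergent pair at Gbp2 was CAST/EiJ and PWK/PhJ, with 94.4% of bins in different states. The least divergent pair there was CAST/EiJ and NOD/ShiLtJ, with 6.48%, so the closest strain to CAST/EiJ at this gene was a laboratory strain.

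**Figure D5:**
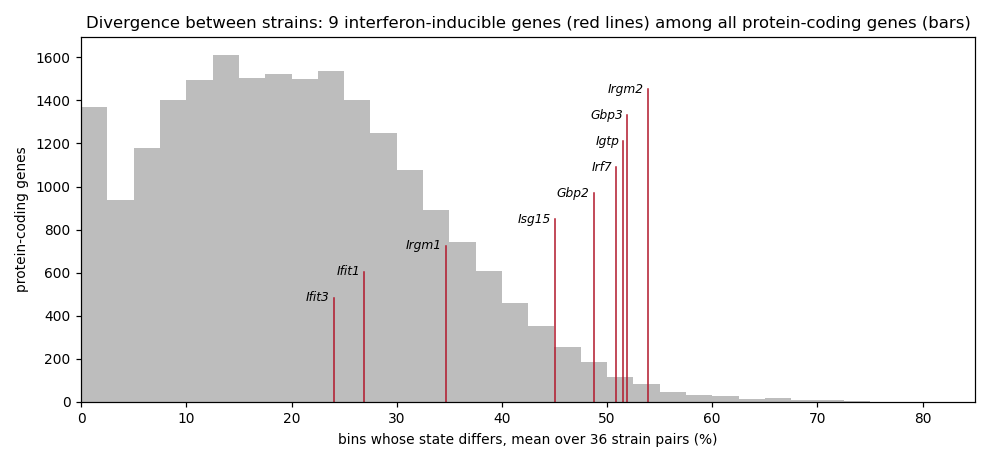
Histogram of divergence between strains, in percent of bins averaged over 36 strain pairs (x axis), for all protein-coding genes (grey bars, number of genes on the y axis), with a red line at each of the 9 genes whose height has no meaning. Irgm2, Gbp3, Igtp, Irf7, Gbp2 and Isg15 lie in the right tail between 45.0% and 53.9%, and the median of all genes is 19.7%.

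The rest of the interferon pathway was followed in 79 further genes, of which 76 are annotated as protein-coding and entered the tests. Of these 76, 52 were called higher at the start than in the rest of the span and 3 lower, against the 47.7% and 7.8% given above. The median of states 1 to 3 over their spans was 14.5% and the median divergence 24.0%. The 7 interferon ligand genes were mostly without states 1 to 3, with a median of 0% and 5 at 0, among them interferon gamma (Ifng). Of the other 2, Ifnb1 had 1.85% ± 3.67 and Ifnk 93.9% ± 7.29 (SD, n = 9 strains), and neither was called at its start. Ifnk lies within the span of Mob3b.

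Of the 9 receptor and kinase genes 8 were called at the start, with span values from 5.66% ± 1.29 for Tyk2 to 46.4% ± 3.22 for Ifnar2 (SD, n = 9 strains). Of the 8 transcription factor genes other than Irf7, 7 were called, with Irf1 the highest at 89.6% ± 6.66. Of the 11 sensors and adaptors 7 were called, with Mavs the highest at 30.6% ± 6.51 and Tlr7 and the DNA sensor gene Mb21d1 at 0. All 5 negative regulators were called, from the SUMO ligase Pias1 at 12.5% ± 4.63 to Socs3, an inhibitor of cytokine signalling, at 81.5% ± 1.98.

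Among 25 other antiviral genes, of which Mx1 and Mx2 were not tested, 17 were called at the start, with Dtx3l the highest at 90.9% ± 4.49 and Oas2 and Oas3 at 0. Of the 5 other immunity-related GTPases 3 were called higher and 2 lower, with Iigp1 the highest at 72.5% ± 25.1 and Tgtp2 the lowest at 14.4% ± 7.59. Of the 9 other GBP genes, of which Gbp11 was not tested, 5 were called higher and 1 lower, from Gbp5 at 0 to Gbp11 at 22.1% ± 5.26. In the wild-derived comparison 1 of the 79 was separate between the groups, Usp18, with the wild-derived strains lower. This count was near the shares over all protein-coding genes given above, 1.11% lower and 0.777% higher. Usp18, the protease that removes Isg15 from its targets, had 39.3% of its span in states 1 to 3 as the mean of the 3 wild-derived strains and 54.7% as the mean of the 6 laboratory strains.

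The genes most like 3 of the 9 in their pattern over strains were found by Pearson's r of states 1 to 3 over 9 strains, among protein-coding genes on other chromosomes whose own range was at least 20 points and whose span held at least 25 bins. Isg15 was most like Dclk3 (r = 0.984), Dohh (r = 0.968) and Msmo1 (r = 0.956). Irgm2 was most like Klf2 (r = 0.893), Acsm1 (r = 0.884) and Smim22 (r = 0.884), and Irgm1 was most like Rbm34 (r = 0.894), Atp1b1 (r = 0.879) and Slpi (r = 0.876). These values are the highest among 2181 genes for Isg15 and 2152 for the other two, in 9 values that share strains and segmentation, and they carry no p.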

How the data were processed

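Hepatocyte ChIP-seq of 4 histone marks was taken from the labels' 117 libraries, grouped by strain. The deposited value is a category, the state number of a 200-bp bin, which the authors give in 1 segmentation per strain, so it is not a count or a signal. Per the submitters' processing notes the build was mm10, with FastQC 0.11.5 and MACS 1.4.2 named without a role. The aligner, the segmentation tool, and whether states were learned over all strains are not given in the sources used here. The depth is unknown, and no counting interval is given. The effect of strain sequence that differs from the mm10 build was not tested.

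Genes came from RefSeq GRCm38.p6. Starts came from its promoter table for 17273 of 21627 protein-coding genes, and both gene ends were used for the rest. Where a gene had several starts, as Gbp3 did, the most upstream was used. Tmem173, Mb21d1 and Tf were matched by synonym, and Mx1, Mx2 and Gbp11 are not protein-coding in the table. Each strain was 1 value. Exact sign-flip (512 patterns, smallest p 0.00391) and exact permutation tests (84 splits), two-sided, were adjusted by Benjamini-Hochberg over all protein-coding genes. Strains share ancestry, and p-values measure the spread between strains only. The code was tested on simulated data and ran in Python 3.11.15, numpy 2.4.6, pandas 2.3.3 and matplotlib 3.10.9.

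The genes and lists were chosen with earlier results of these data known. The text names the 9 genes, the highest and lowest of each pathway list in states 1 to 3 (some listed genes are not reported here), list genes separate between wild-derived and laboratory strains, and the 3 genes most like each of the 3 genes of widest range. Ifnb1, Ifng, Mx1, Mx2, Gbp2b, Gbp7, Gbp9 and single markers were named after their values were seen. Alternatives covered padding, start windows, other state groups, merged states, only bins outside state 14 in at least 1 strain, a match within 1 bin, strains left out and the gene background.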

Additional observations from a re-analysis of the deposited data

Results flagged for a closer look

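The values of each gene over the 9 strains were searched for a strain far from the rest, by its gap to the nearest strain over the whole range, against Dixon's limit for 9 values. Of 20 sets of values, 2 held such a strain, and chance alone gives about 1 in 20, or 1 set. The run of states 1 to 3 over the Irgm2 start was 6400 bp in DBA/2J against 4400 bp in the next strain, A/J, a gap of 0.625 of the range. The run over the Gbp2 start was 3200 bp in PWK/PhJ against 2000 bp in the next, C57BL/6J, a gap of 0.545 of the range.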

How the results depend on the processing

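No paired analysis was possible because each strain has 1 segmentation that pools its mice, although the labels give some mouse numbers in several strains. The median share of states 1 to 3 over the 9 genes, 26.3%, was 33.1% without padding, 15.03% with 5 kb, 40.6% with state 4 added, 74.9% for all states other than 13 and 14 and 4.19% for state 3 alone, and between 25.3% and 27.3% with a strain left out. The count of genes separate between wild-derived and laboratory strains was 1, and 0 for state 3 alone. That gene was Isg15, but for all states other than 13 and 14 it was Irf7 in place of Isg15. The count called higher at the start was 8, and 4 for state 3 alone. It was 9 with 5 kb of padding or a 500-bp window, 7 for all states other than 13 and 14, and from 8 to 8 with a strain left out. The start difference of Isg15 ran from -0.602 points without WSB/EiJ to 3.41 without NOD/ShiLtJ and turned to -1.07 for all states other than 13 and 14, -16.4 for state 3 alone and -13.2 with a 2-kb window, and that of Gbp3 to -0.146 for state 3 alone. The median divergence, 48.7%, was 43.9% with 5 kb, 34.7% with states 13 and 14 merged, 41.8% with a match allowed within 1 bin, and between 44.1% (without CAST/EiJ) and 51.2% with a strain left out. For settings other than a group of states or merged states, the cause was not tested. In the wild-derived comparison of 3 against 6 strains, no gene passed correction over all protein-coding genes, which the 84 splits made hardly possible.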

Other observations

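CAST/EiJ stood low at a pair of other immunity-related GTPase genes, chosen after their values were seen. States 1 to 3 covered 6.90% of the Iigp1 span in CAST/EiJ, and their mean over the 9 strains, CAST/EiJ included, was 72.5% ± 25.1 (SD). They covered 0% of the Gm12250 span, against a mean of 25.2% ± 10.2. State 14 covered 81.0% of Iigp1 in CAST/EiJ and at most 12.1% in another strain (NZO/HlLtJ). At Gm12250 it covered 78.8% in CAST/EiJ and up to 71.2% in another strain (129S1/SvImJ). Whether CAST/EiJ sequence that is missing or differs from the mm10 build gave these values was not tested. At the other 3 genes of that list CAST/EiJ was near the mean, with 62.6% at Ifi47 (mean 60.3%), 23.2% at Tgtp1 (mean 22.0%) and 15.8% at Tgtp2 (mean 14.4%). In the 9 genes of the report CAST/EiJ had the lowest share at Isg15 (35.7%), Igtp (26.2%), Ifit1 (5.97%), Gbp2 (4.63%) and Gbp3 (0%), but shared the next-to-highest at Irgm1 (59.6%) with PWK/PhJ.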
